A study of Mus musculus with 42 samples.

Results

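Skeletal muscle of mice in the rosiglitazone group was compared with skeletal muscle of the diabetic macroangiopathy group, gene by gene, on 1-colour expression microarrays. The members are the 3 muscle arrays of each group, chosen by their sample titles, which makes 6 of the 21 skeletal muscle arrays and of the 42 arrays of the series. All 6 came from male KK/Ay mice, an obese diabetic strain with the yellow agouti allele, and the mice entered the study at 18 to 20 weeks of age. To injure the vessels, both groups ate a high-fat diet for 8 weeks and drank water with 0.2 mg/ml L-NAME, which blocks nitric oxide synthase. The macroangiopathy group was then gavaged with saline and the rosiglitazone group with rosiglitazone for a further 8 weeks. Each array stands for the muscle of 1 mouse, and which muscle was taken is not given in the sources used here.

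Rosiglitazone is a thiazolidinedione that binds and activates the nuclear receptor PPARγ. PPARγ pairs with a retinoid X receptor, sits on the promoters and enhancers of its target genes and, in fat cells, drives genes that take up, bind and store fatty acids. Skeletal muscle holds little PPARγ and more of its relatives PPARα and PPARδ, which act mainly on fatty acid oxidation. Muscle is the main site of insulin-driven glucose uptake, and thiazolidinediones are known for raising its insulin sensitivity.

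The layout of the arrays bears on every value that follows. Arrays of this design are made several to a glass slide, and no slide held both groups. Rosiglitazone array 1 shared its slide with the 3 muscle arrays of the huoxue group, which had the same strain, diet and L-NAME and a herbal formula in place of rosiglitazone. Rosiglitazone arrays 2 and 3 shared theirs with healthy C57BL/6 muscle arrays 1 and 2, while healthy array 3 lay on another slide. Macroangiopathy arrays 1 and 2 lay together on another slide and array 3 on yet another. For this reason the levels in the huoxue and healthy groups are given beside those of the 2 groups compared. Scan days, numbered in order of date, were split as well. Rosiglitazone array 1 and the huoxue and macroangiopathy arrays were scanned on day 1 and healthy array 3 on day 2. Rosiglitazone arrays 2 and 3 and healthy arrays 1 and 2 were scanned on day 3. Probes well above background made up 56.7% to 63.8% of the named probes on the rosiglitazone arrays and 61.0% to 66.2% on the macroangiopathy arrays. All 14 skeletal muscle markers were above background on all 6 arrays. Levels are normalized log2 intensities, on which a rise of 1 is a doubling, and a difference is always rosiglitazone minus macroangiopathy.

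Of 13699 genes tested, 1695 were called at a Benjamini-Hochberg adjusted p under 0.05 in limma, which is 12.4% of those tested. 798 were higher with rosiglitazone (5.83%) and 897 lower (6.55%). At an unadjusted p under 0.05, the threshold of the study's methods, 4233 genes passed (30.9%). The arrays of the groups did not overlap for 5288 genes (38.6%). Most called differences were small, with a median size of 0.37 on the log2 scale. The decreases reached further than the increases: 82 called genes were lower by more than 1 log2 unit and 3 were higher by as much. The p-values measure the spread between these 3 mice a group and leave slide out. With slide as a random block, limma called 857 genes over the 6 arrays and 181 over the 21 muscle arrays, and without macroangiopathy array 1 it called 347.

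The 8 decreases described first were the largest among called genes with a gene name whose groups did not overlap and that were above background on all 6 arrays. Psme3, which encodes the REGγ activator of the proteasome, stood at 9.90, 11.05 and 10.85 on the rosiglitazone arrays and at 14.23, 13.97 and 14.04 on the macroangiopathy arrays. The difference was -3.48 ± 0.29 (SE, limma adjusted p = 0.0031), an 11.1-fold lower level. Uqcrb, a subunit of respiratory complex III, stood at 11.23, 11.45 and 11.64 against 14.48, 14.65 and 14.10, a difference of -2.97 ± 0.16 (adjusted p = 0.00118). Cox7c, a subunit of cytochrome c oxidase, stood at 9.88, 11.31 and 11.39 against 13.13, 13.50 and 12.62, a difference of -2.23. In each of these genes the groups were far apart, and rosiglitazone array 1 was the lowest of the 6. The other decreases named by size were Rn28s1, the 28S ribosomal RNA, at -1.99, Slc37a4, the glucose 6-phosphate transporter of the endoplasmic reticulum, at -1.85, and H2-T23, a non-classical class I antigen, at -1.76. Rps21, a protein of the small ribosomal subunit, followed at -1.67 and Rpp14, a subunit of ribonuclease P, at -1.62.

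The huoxue arrays carried the same low levels. Psme3 stood at 10.35, 10.31 and 10.32 there, and Uqcrb at 10.59, 10.56 and 11.37. With slide as a term of the limma fit, rosiglitazone minus huoxue was -0.42 for Psme3 (adjusted p = 0.86) and 0.39 for Uqcrb (adjusted p = 0.89). For some of these genes the healthy group was split along its slides. Uqcrb stood at 11.20 and 11.55 on healthy arrays 1 and 2, which shared the rosiglitazone slide, and at 13.75 on healthy array 3. Rn28s1 was split in the same way, at 8.37 and 9.36 against 10.24. For Slc37a4 the order was the other one, with 10.30 and 11.38 on the shared slide and 9.71 on array 3. Cox7c was low on all healthy arrays, at 9.46 and 10.13 on the shared slide and at 10.65 on array 3. With slide as a term, rosiglitazone minus healthy was 1.55 for Cox7c (limma adjusted p = 0.0344). Whether slide or drug set these levels cannot be told apart between the groups compared.

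By the same rule, which leaves out 2 genes known only by clone-type symbols among the 3 above 1 log2 unit, the 8 largest increases ran from 0.80 to 1.01. Pcdh1, a protocadherin of cell contacts, stood at 10.71, 10.64 and 10.88 with rosiglitazone and at 9.79, 9.80 and 9.59 without, a difference of 1.01 ± 0.09 (limma adjusted p = 0.00369). Hagh, the glyoxalase that clears lactoylglutathione, stood at 13.10, 13.09 and 13.33 against 12.35, 12.21 and 12.42, a difference of 0.85. Both were as high on the huoxue arrays, where Pcdh1 stood at 10.78, 10.59 and 10.77. Pcdh1 stood at 10.64 and 10.90 on healthy arrays 1 and 2 and at 9.53 on healthy array 3. CYTB, the mitochondrially encoded cytochrome b, rose by 0.87. It stood at 17.54 and 17.48 on healthy arrays 1 and 2, at 16.64 on healthy array 3 and at 16.87, 17.01 and 17.19 in huoxue. Mov10, an RNA helicase, rose by 0.80 and Chac1, which degrades glutathione and belongs to the stress genes under Atf4, by 0.82. Atf4 itself fell by 0.71 (limma adjusted p = 0.00511). Fibin, Sema7a and Tspan4 made up the rest of the increases and are taken up again below.

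**Figure D1:**
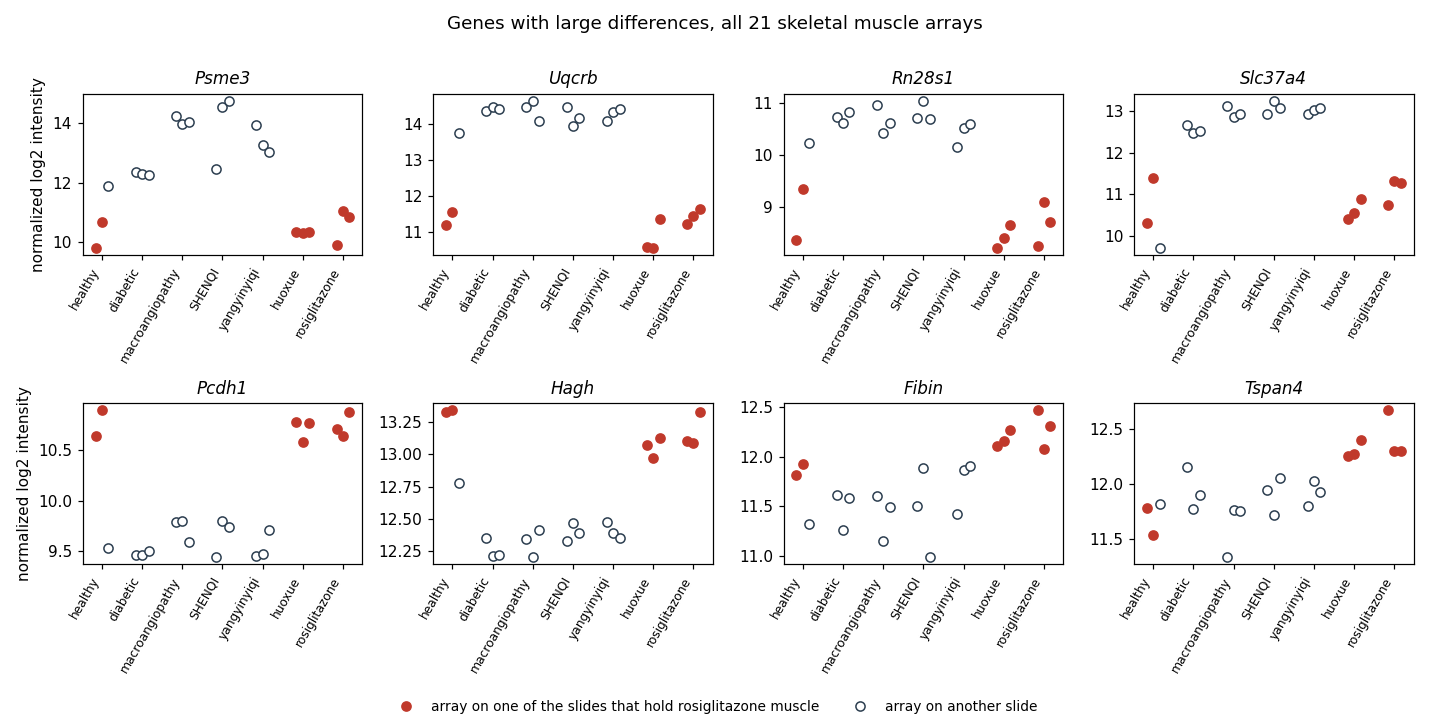
Normalized log2 intensity of 8 genes on all 21 skeletal muscle arrays, 1 point per array, by group on the horizontal axis. Filled points are arrays on the slides that hold rosiglitazone muscle: for Psme3, Uqcrb, Rn28s1, Pcdh1 and Hagh the huoxue arrays and healthy arrays 1 and 2 lie with the rosiglitazone arrays, while for Tspan4 healthy arrays 1 and 2 stay low.

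Of the called genes, 80.6% moved in healthy arrays 1 and 2 against healthy array 3 the way they moved between the groups compared, beside 64.7% of all genes tested, and this comparison shares no array with the main one. It rests on 1 array on its side, and that array and macroangiopathy array 2 were also the highest of their groups in epidermal genes, at summed levels of 111059 and 117860, whose part was not tested. With slide as a term the comparison with huoxue rests on rosiglitazone array 1 and that with healthy on arrays 2 and 3. The spread comes from the other arrays of the 2 slides, so a difference that did not pass there is no sign that the groups were alike. On that basis, 5 genes were called between rosiglitazone and huoxue, 0.0365% of those tested, and 875 passed at an unadjusted p under 0.05. Rosiglitazone against healthy, which also differ in strain, diet and disease, gave 778 called genes, or 5.68%.

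The probes that moved shared a feature of sequence. Each probe is a 60-base strand, and the share of A and G bases in it went with the direction of the difference. Over probes with up to 40% A and G the median difference was 0.16, and it fell with each step to -0.35 over the 564 probes with more than 65%. Differences below -1 made up 0.729% of the probes in the lowest class and 10.8% in the highest. Counted by gene, 2.0% of the genes in the lowest class were called lower and 16.1% higher, while in the highest class 49.7% were called lower and 1.1% higher. The median share was 45% in the genes called higher, 56.7% in those called lower and 50.6% in all genes tested. In healthy arrays 1 and 2 against healthy array 3 the probe medians ran from 0.17 to -0.39 over the same classes. Within slides they did not fall this way: the medians of rosiglitazone array 1 minus huoxue ran from -0.05 to 0.10, and those of rosiglitazone arrays 2 and 3 minus healthy arrays 1 and 2 stayed between 0.03 and 0.06.

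**Figure D2:**
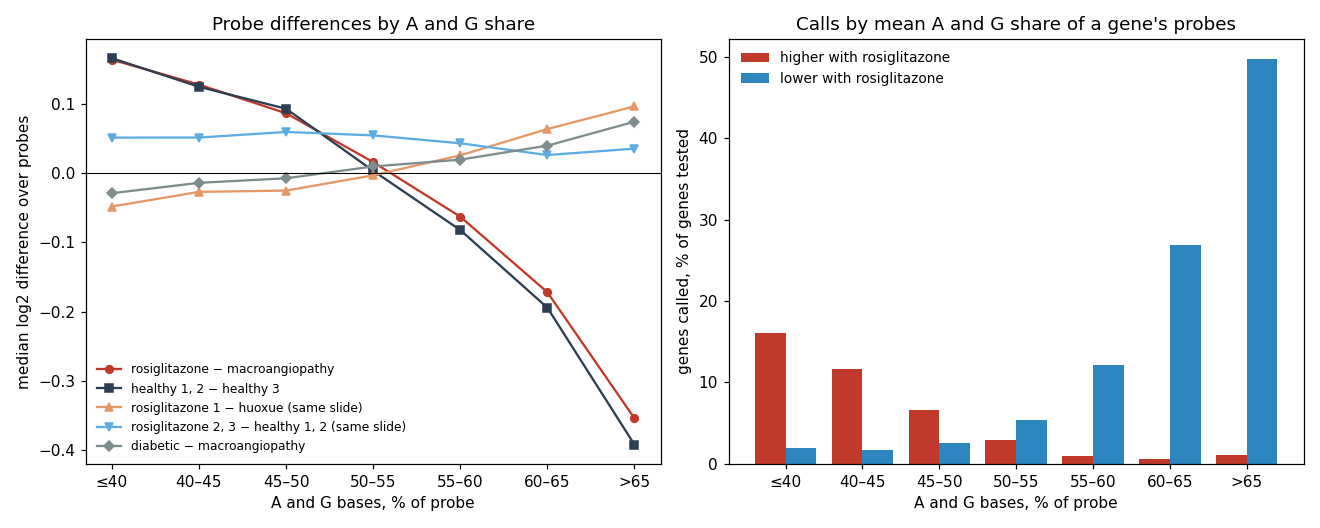
Left, median log2 difference over probes against the share of A and G bases in the probe, for 5 pairs of array sets; right, genes called as a percentage of genes tested, against the mean share over the probes of a gene. The line for rosiglitazone minus macroangiopathy falls from 0.16 to -0.35 and the line for healthy arrays falls with it, while genes called lower go from 2.0% to 49.7%.

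The stretches below are printed to show the feature in the single probe of Uqcrb and in genes whose probes differed, Rps21 and Rxra. Whether the sequence set the difference was not tested. Each is the 30-base stretch of the probe with the most A and G bases, 5′ to 3′, with its longest run of A and G in capitals. The Uqcrb probe lies at chr13:67001666-67001725 of mm9, the Rps21 probes at chr2:179992705-179992936 and chr2:179993084-179993143, and the Rxra probes at chr2:27615316-27615375 and chr2:27618411-27618470.
Uqcrb probe: GGGAAAGAAAGGAGAGAGAAGAGtgggcaa
Rps21 first probe: atggcatctgcGGGGccattcgcaggatgg
Rps21 second probe: gagcAGAAGAAAtcgggaatttgttacaaa
Rxra first probe: gtccttatgggcccAAAAGAtgcatcacca
Rxra second probe: aagaaacaacaacatGAGAGGAGAGAcaaa
The Uqcrb stretch holds 28 A or G bases of 30, in a probe that is 70% A and G. The 2 probes of Rps21 differed by -0.29 and -3.05. Their shares of A and G lay close together, at 55% and 58.3%, and the probe that fell further has the longer run. The 2 probes of Rxra, at 35% and 63.3% A and G, differed by 0.11 and -1.23. The feature does not sort every probe: the Psme3 probe, which fell most, is 38.3% A and G, and the probes of Me1, at 50% and 51.7%, differed by -1.75 and 0.11. Of 482 called genes with more than 1 probe, 99 had probes that moved in opposite directions.

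Among the receptors and their partners 1 of the 14 genes tested was called, beside 12.4% of all genes. Pparg itself was above background on all 6 arrays. It stood at 10.51, 9.89 and 9.69 with rosiglitazone and at 9.31, 10.01 and 9.56 without, so the groups overlapped, and the difference of 0.41 ± 0.25 did not pass (limma adjusted p = 0.316). Ppara stood at 9.80, 9.45 and 9.63 against 8.99, 9.02 and 9.35. The arrays did not overlap, but its difference of 0.51 ± 0.13 fell just outside the threshold (adjusted p = 0.0506), and its huoxue levels were 9.58, 9.68 and 9.46. Ppargc1a, the coactivator that promotes mitochondrial growth, differed by 0.27 (adjusted p = 0.079). Rxra, the partner receptor, was the member called, at -0.56 ± 0.12 (adjusted p = 0.0363), and the decrease came from the second of the probes shown above. Ppard was not well above background on all arrays of either group and was not tested.

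Of 40 PPAR target genes tested, 2 were called higher and 2 lower, which is 10%, a share near the 12.4% of all genes, and the median difference of the list was 0.03, the same as the 0.03 of all genes. Lpl, the lipoprotein lipase that frees fatty acids from circulating triglyceride, stood at 13.78, 13.70 and 13.65 with rosiglitazone and at 13.09, 13.06 and 13.29 without. Its difference was 0.56 ± 0.08 (limma adjusted p = 0.0103), a 1.47-fold higher level, and its 2 probes rose by 0.64 and 0.48. Plin4, a coat protein of lipid droplets, stood at 14.43, 14.19 and 14.07 against 13.37, 13.71 and 13.68, a difference of 0.65 ± 0.13 (adjusted p = 0.0271). Both genes were also high on the huoxue arrays, with Lpl at 13.70, 13.88 and 13.56 and Plin4 at 13.93, 14.34 and 13.86. Rosiglitazone minus huoxue on the shared slide was 0.07 for Lpl and 0.39 for Plin4, and neither passed.

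The targets called lower were Slc25a20, the carnitine-acylcarnitine carrier of the mitochondrion, at -0.49 (adjusted p = 0.0262), and Me1, the malic enzyme that supplies NADPH, at -0.82 (adjusted p = 0.0492). Me1 rests on the probe named above, and on its brighter probe the difference was 0.11. Acot1, an acyl-CoA thioesterase, differed by -1.04 (adjusted p = 0.0696) and Hadhb, of the mitochondrial trifunctional protein, by 0.23 (adjusted p = 0.0737). Cidec, a lipid droplet protein of fat cells, lay further out than the called targets at 1.11 ± 0.53 but did not pass (limma adjusted p = 0.211).

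**Figure D3:**
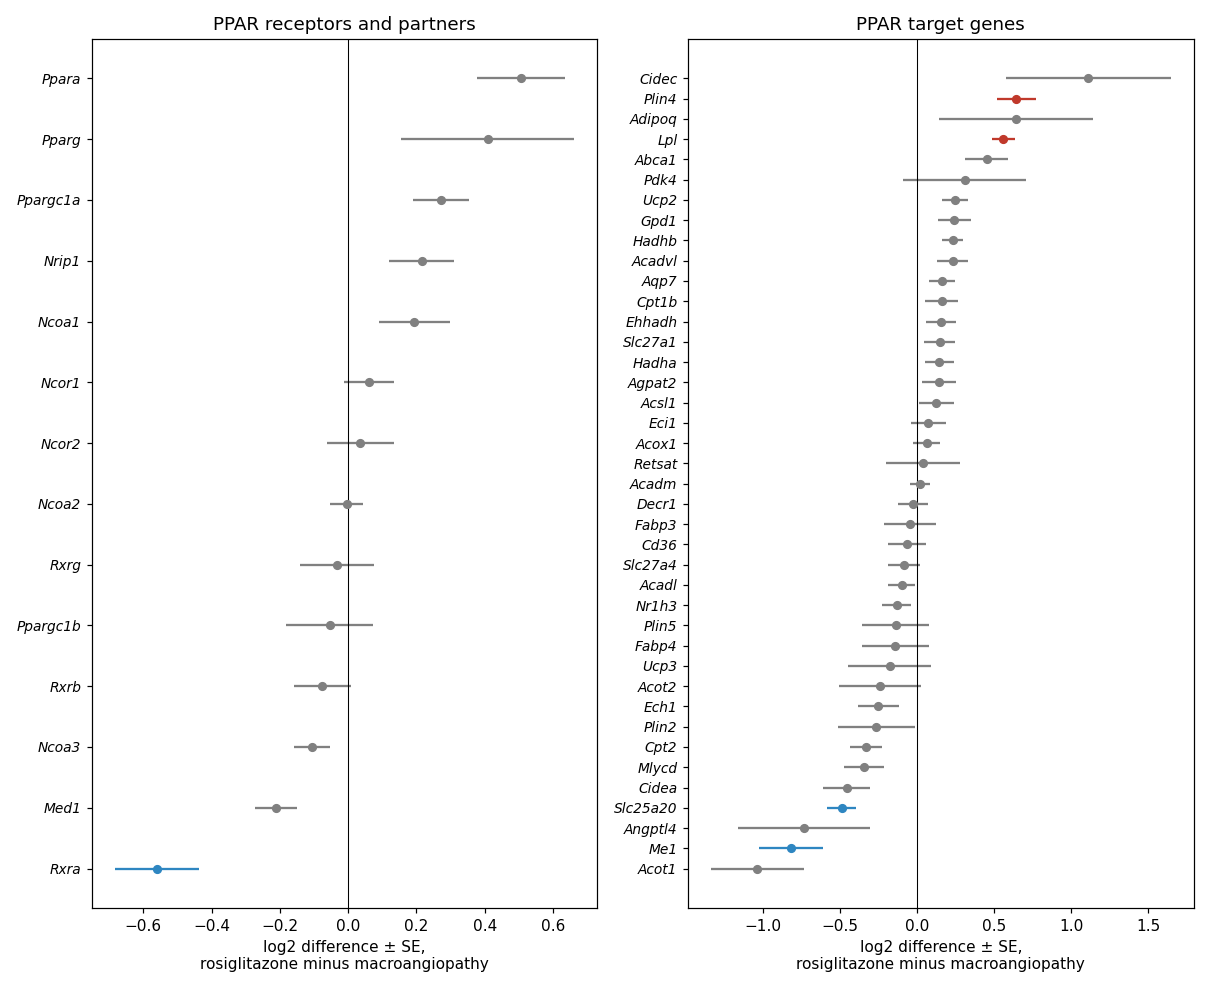
Log2 difference with its SE, rosiglitazone minus macroangiopathy, for the 14 PPAR receptors and partners and the 40 PPAR target genes tested. Coloured points passed an adjusted p of 0.05 (red higher, blue lower): Rxra among the receptors and partners, and Lpl, Plin4, Slc25a20 and Me1 among the targets, which lie on both sides of 0.

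Of 13 white fat cell markers tested, Lpl was called. The median difference of the list was 0.29, beside 0.03 for all genes, and 11 of the 13 lay above 0. Adipoq, the fat cell hormone adiponectin, differed by 0.64 ± 0.50 (limma adjusted p = 0.421), Car3 by 0.73 (adjusted p = 0.0533) and Retn by 0.42 (adjusted p = 0.108). The summed level of the markers ranged from 53363 to 70693 on the rosiglitazone arrays and from 37195 to 61340 on the macroangiopathy arrays, so it overlapped. Whole muscle does not show which cells gave these RNAs. More fat between the fibres, more RNA per fat cell and RNA of other cells cannot be told apart. Lipid droplet genes gave 1 call in each direction among 20 tested. Fatty acid oxidation gave 2 lower calls of 24 and fatty acid and cholesterol synthesis 2 lower calls of 25, both near the 6.55% called lower among all genes.

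Slc2a4, the insulin-responsive glucose transporter GLUT4, stood at 14.89, 14.64 and 14.64 with rosiglitazone and at 15.03, 15.04 and 15.11 without, a difference of -0.34 ± 0.08 (limma adjusted p = 0.0428), and at 14.58, 14.50 and 14.58 on the huoxue arrays. Of 35 insulin signalling and transport genes 1 rose and 3 fell, a share of 11.4% near the 12.4% of all genes. Prkab2, a regulatory subunit of AMP-activated kinase, fell by 0.66. Of 29 glycolysis and glycogen genes 3 rose and 1 fell, or 13.8%. Ldhb, the heart-type subunit of lactate dehydrogenase, rose by 0.47 (limma adjusted p = 0.0329). Ldha, the muscle-type subunit, fell by 0.55 (limma adjusted p = 0.00926). The Ldha value averages probes that moved in opposite directions, by -1.39 and 0.28. With the term for the rosiglitazone slides over 21 arrays, which on its other side rests on healthy array 3, the difference of Ldhb was -0.72 (limma adjusted p = 0.0165).

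The respiratory chain held calls in both directions, beside 5.83% higher and 6.55% lower among all genes. In complex I, 3 of 37 subunits were higher and 9 lower, and in complexes III to V, 6 of 36 were higher and 10 lower. Ndufs8, a subunit with iron-sulphur clusters, stood at 10.82, 10.79 and 10.75 with rosiglitazone and at 12.13, 12.13 and 11.90 without, a difference of -1.27 ± 0.08 (limma adjusted p = 0.00143). Ndufa6 fell by 1.04 and Ndufc2 rose by 0.40 in the same complex, but with the slide term over 21 arrays Ndufc2 differed by -1.01 (limma adjusted p = 0.000155). The separate genes for the c-ring subunit of ATP synthase also parted. Atp5g3 was down by 0.85 (limma adjusted p = 0.0031), while Atp5g1 was up by 0.28 (adjusted p = 0.0166) and Atp5g2 by 0.29 (adjusted p = 0.0154). The called subunits of a complex thus lay on both sides of 0. Averaged over its tested subunits, complex I stood between 13.57 and 13.62 with rosiglitazone and between 13.72 and 13.76 without. Its huoxue mean was 13.50 and its healthy mean 13.28. Complexes III to V stood at 14.70 to 14.85 against 14.99 to 15.09, with a huoxue mean of 14.63 and a healthy mean of 14.49. Against huoxue on the shared slide the list medians were -0.015 and 0.075. In the citric acid cycle and pyruvate entry 3 of 29 genes rose and 4 fell, among them Pdhx, the binding protein of pyruvate dehydrogenase, by 1.16 and Sdhb, the iron-sulphur subunit of succinate dehydrogenase, by 0.55.

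Among fibre type genes 1 of the slow set rose and 3 of the fast set fell. Tnni1, slow troponin I, stood between 13.96 and 14.04 on the rosiglitazone arrays and at 12.99, 13.21 and 13.45 without, a difference of 0.78 ± 0.11 (limma adjusted p = 0.0124). It was the 1 of 12 slow fibre genes called, beside 12.4% of all genes, while 10 of the 12 lay above 0 and their median was 0.25. Of 15 fast fibre genes 3 fell and none rose, beside 6.55% called lower and 5.83% higher among all genes. Yet 8 of the 15 lay above 0, and their median was 0.0049, beside 0.03 for all genes. Those that fell included Myh4, the fastest myosin heavy chain, by 0.50 (limma adjusted p = 0.00812) and Tnnc2, fast troponin C, by 0.34. Pvalb, the calcium buffer of fast fibres, fell by 0.81 (adjusted p = 0.0311). Tnni1 was as high on the huoxue arrays, at 13.67, 14.28 and 14.21, and lower in all 3 healthy mice, at 12.91, 12.62 and 12.63. Of the 21 muscle atrophy and myogenic genes tested limma called 0, beside 12.4% of all genes, and 5 passed at an unadjusted p under 0.05, beside 30.9%.

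Among all genes 6.55% were called lower and 5.83% higher, against which the next counts stand. Of 64 cytosolic ribosomal proteins 17 were lower and 7 higher, with a median of -0.10. Averaged over the list, they stood between 13.37 and 13.42 with rosiglitazone and between 13.51 and 13.62 without. The huoxue mean was 13.37 and the healthy mean 13.69, and the list median against huoxue on the shared slide was -0.016. Rps23 fell by 0.74, while Rps26 rose by 0.36. Of 36 proteasome subunits 4 were lower, among them Psmb10, a subunit of the immunoproteasome, by 0.79 and Psma7 by 0.57, and 3 were higher. With the slide term over 21 arrays Psma7 differed by 0.57 in the other direction (limma adjusted p = 0.0106). Heat shock proteins and chaperones gave 5 lower calls of 21, led by Bag3, a co-chaperone of damaged muscle filaments, at -0.99 (limma adjusted p = 0.00332). The list of Nrf2 and antioxidant genes gave 5 lower calls of 25 and no higher one, with a median of -0.0020.

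**Figure D4:**
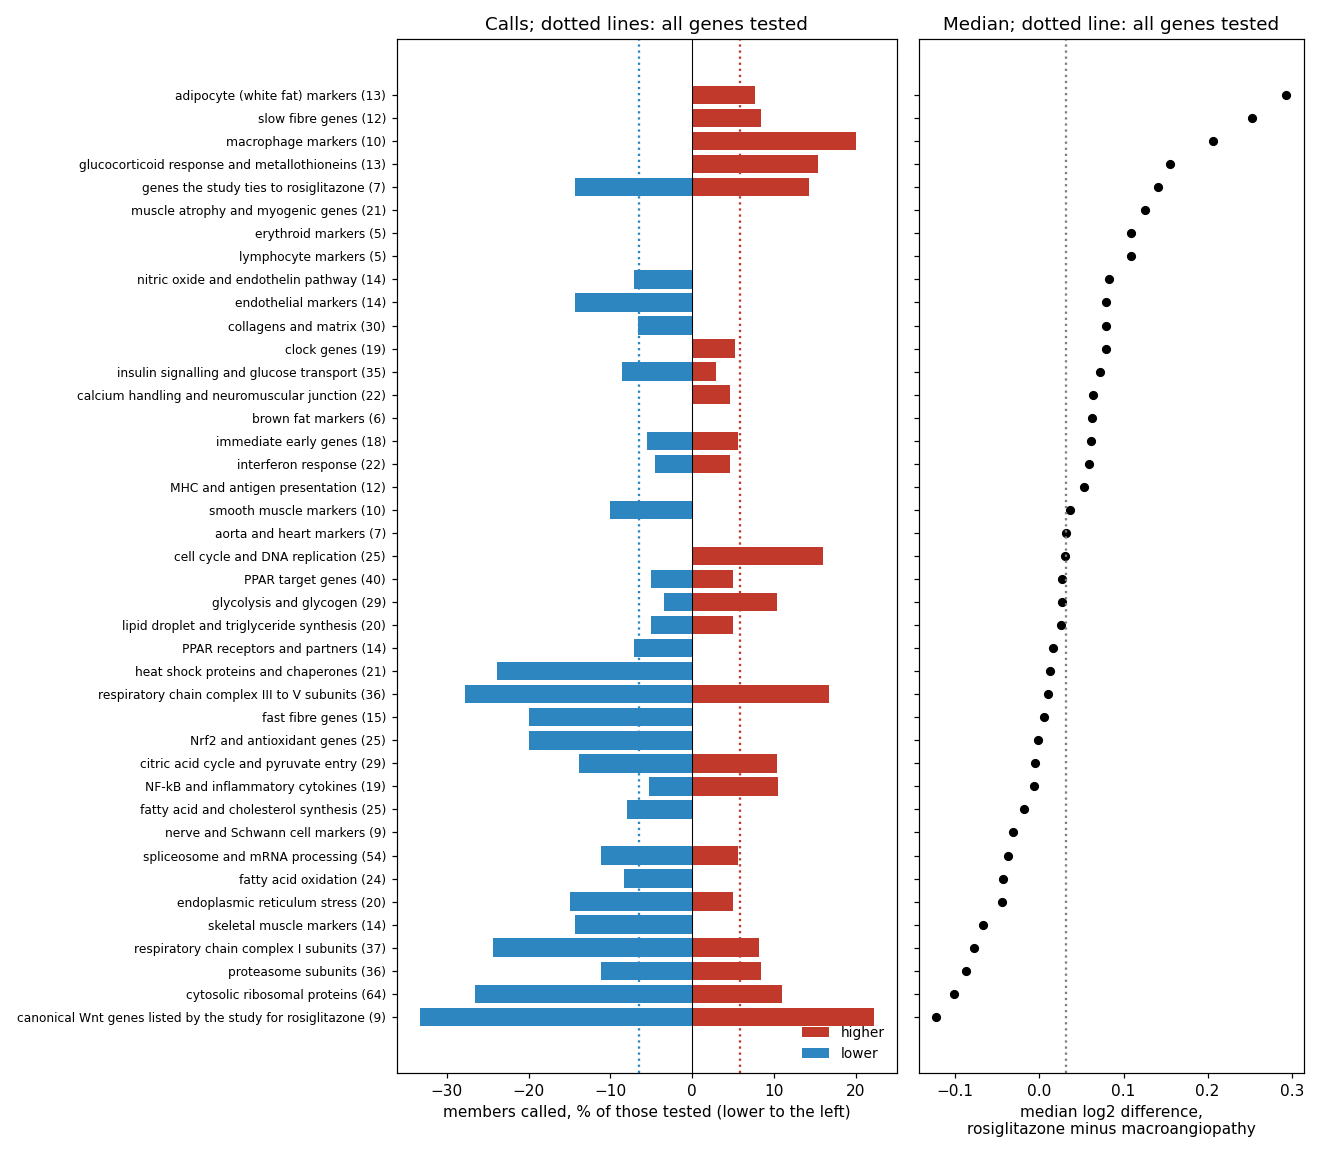
Members called as a percentage of those tested, higher to the right and lower to the left, and the median log2 difference of each gene list, with the number tested in brackets. Dotted lines mark all genes tested, 5.83% higher, 6.55% lower and a median of 0.03. Ribosomal proteins and respiratory chain subunits lie beyond the lines on both sides and further on the lower side, and PPAR targets lie within both lines.

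Of the endothelial markers 2 of 14 were called, of the macrophage markers 2 of 10 and of the NF-kB and cytokine genes 3 of 19, beside 12.4% of all genes. Among the endothelial markers Cdh5, the cadherin of endothelial junctions, fell by 0.41 (limma adjusted p = 0.0117) and Esam, an adhesion molecule, by 0.97 (adjusted p = 0.0244), while the median was 0.08. The summed level of the endothelial markers ranged from 14757 to 22200 with rosiglitazone and from 16151 to 16345 without. Ddah2, which breaks down an internal inhibitor of nitric oxide synthase, was the 1 gene of 14 called in the nitric oxide and endothelin list. It stood at 10.02, 9.56 and 9.47 with rosiglitazone and at 10.60, 10.67 and 10.79 without, a 2.01-fold lower level (adjusted p = 0.0124), and between 9.38 and 9.71 in the healthy and huoxue arrays. Of 10 macrophage markers Emr1 rose by 0.26 and Csf1r, the receptor for the macrophage growth factor, by 0.38. The lymphocyte, nerve, erythroid, brown fat and antigen presentation lists, with 5, 9, 5, 6 and 12 genes tested, had 0 calls in limma. At an unadjusted p under 0.05, 0, 0, 1, 3 and 3 of these genes passed, beside 30.9% of all genes. In the glucocorticoid list Glul, glutamine synthetase, rose by 0.74 (adjusted p = 0.0225), and among the immediate early genes Nr4a1, an orphan receptor induced in muscle by activity, rose by 0.65 (adjusted p = 0.00907).

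Genes of the outer skin were present unevenly among the macroangiopathy arrays. Krt10, a keratin of epidermis, stood at 10.28, 13.31 and 7.87 on macroangiopathy arrays 1 to 3 and at 8.32, 8.19 and 8.72 with rosiglitazone. The summed level of 14 such genes, picked after their values were seen, was 117860 on macroangiopathy array 2, 19676 on array 1 and 2665 on array 3, beside 4058 to 7802 on the rosiglitazone arrays. None of the 13 tested was called, beside 12.4% of all genes. Their levels lay far apart among the macroangiopathy arrays, which widens the spread in the test, so the absence of calls is no sign that the groups were alike. The part of these genes in other differences was not tested.

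The study itself ties 8 genes to rosiglitazone and lists 9 canonical Wnt genes for it, both chosen with these samples, so neither list is independent evidence. Of the 8, Psmd3, a lid subunit of the proteasome, stood at 13.23, 12.76 and 12.52 with rosiglitazone and at 13.80, 13.59 and 13.72 without, a difference of -0.87 ± 0.17 (limma adjusted p = 0.0287), which turned to 1.02 with the slide term over 21 arrays (adjusted p = 0.0307). Mybl2, a cell cycle regulator, rose by 0.37 (adjusted p = 0.0141). Nfe2l2, Rb1, Mta1 and Polr2a differed by 0.19, 0.21, -0.15 and 0.14 without passing, and Nr0b2 was too dim to be tested. The 2 called genes were 28.6% of the 7 tested, beside 12.4% of all genes. Of the 9 Wnt genes 2 rose and 3 fell, or 55.6%, in a list picked with these samples. Lrp5, the Wnt co-receptor, fell most, from 8.49, 8.49 and 8.60 to 7.34, 7.20 and 7.28, a difference of -1.26 ± 0.06 (adjusted p = 0.000823). Its huoxue levels were 7.05, 7.17 and 7.09, and it stood at 7.41 and 7.42 on healthy arrays 1 and 2 and at 8.45 on healthy array 3.

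A rule on position was used to list called genes that also lay apart from the other arrays of the rosiglitazone slides. It asked that rosiglitazone array 1 lie beyond all 3 huoxue arrays and rosiglitazone arrays 2 and 3 beyond healthy arrays 1 and 2, in the direction of the main difference. 71 called genes met it, 55 higher and 16 lower, which is 4.19% of the called genes, beside 5.83% of all genes tested and 6.06% of the genes not called, so the share is no higher than the background. Leaving out 1 array lowered the count of 71 to between 5, without macroangiopathy array 1, and 39, without rosiglitazone array 1. Tspan4, a tetraspanin, stood at 12.67, 12.29 and 12.30 with rosiglitazone, at 11.34, 11.76 and 11.75 in macroangiopathy, at 12.25, 12.27 and 12.40 in huoxue and at 11.78 and 11.53 in healthy arrays 1 and 2. Its difference was 0.80 ± 0.15 (limma adjusted p = 0.0245). Sema7a, a membrane-anchored semaphorin, stood at 12.04, 11.73 and 11.28 against 10.85, 10.98 and 10.66, a difference of 0.85, and its huoxue levels reached 11.78. Fibin, a secreted factor, stood at 12.46, 12.07 and 12.30 against 11.60, 11.16 and 11.50. In all 3 genes array 1 was the highest of the rosiglitazone arrays, and its margin over the nearest huoxue array was 0.27 or less.

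The other increases of this kind were Lrrn4cl at 0.65, C7, a complement component of the membrane attack complex, at 0.50 and Fcsk, fucokinase, at 0.48. The decreases were Actb, cytoskeletal beta actin, at -0.62, Epm2a, the glycogen phosphatase laforin, at -0.59, Nudt8 at -0.50, Vps36, a subunit of the endosomal sorting complex, at -0.48, Calr, the chaperone calreticulin, at -0.47 and Ddx21, a nucleolar helicase, at -0.43. With the slide term over 21 arrays Calr and Ddx21 turned to 0.52 (limma adjusted p = 0.0146) and 0.79 (adjusted p = 0.000856). Against huoxue on the shared slide the differences of these 12 genes lay between -0.51 and 0.45, and none passed. All lay in the direction of the main difference, which the rule itself fixes, since this comparison rests on rosiglitazone array 1.

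**Figure D5:**
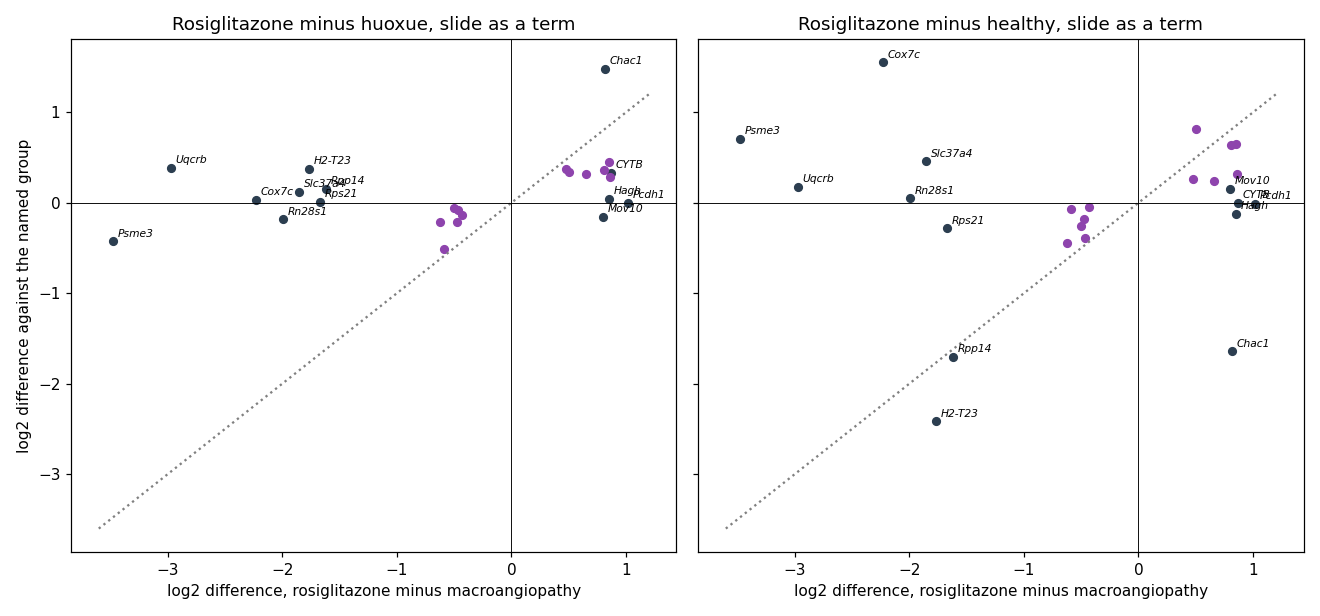
Log2 difference of the named genes against huoxue (left) and healthy (right), each with slide as a term, plotted over the difference against macroangiopathy; the dotted line marks equal differences. Purple points met the rule on slides. Uqcrb, Cox7c and Slc37a4, which were lower against macroangiopathy, lie above 0 on both vertical axes. H2-T23 and Rpp14 also lie above 0 against huoxue, at 0.38 and 0.16, but at -2.41 and -1.70 against healthy.

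A few genes dropped under the background. Leo1, a subunit of the PAF1 complex of transcription, Sult2a8, a sulfotransferase, and Amy2a5, pancreatic amylase, were not well above background on any rosiglitazone array and above it on all 3 macroangiopathy arrays. Their levels were at least 2.13-fold, 2.11-fold and 2.04-fold lower, where each bound sets the mean of the bright group against the dimmest signal called above background on each array of the dim group, or the probe's own if that is higher. For Leo1 the limma adjusted p was 0.0225, and for Amy2a5 it was 0.000823. Amy2a5 stood at 6.76, 6.80 and 6.78 on the huoxue arrays as well. In the other direction the largest such bounds were 1.18-fold or less.

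The agouti gene a, listed as nonagouti, tells the strains apart. It stood at 10.17, 9.69 and 9.72 with rosiglitazone and at 9.31, 9.07 and 9.79 in macroangiopathy, a difference of 0.47 ± 0.21 that did not pass (limma adjusted p = 0.18). On the healthy C57BL/6 arrays it stood between 6.85 and 6.89, so all 6 arrays compared read as KK/Ay muscle.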

How the data were processed

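RNA of skeletal muscle was labelled with Cy3 and hybridised to Agilent 4x44K mouse arrays. The authors deposited the scanner intensity of every spot, from Agilent Feature Extraction 10.7, and a log2 table that, per the methods, was background corrected and quantile normalized. The rosiglitazone dose was 1.33 mg/kg per day. Here spot medians were corrected with limma 3.58.1 (normexp, offset 0), controls were left out, and values were quantile normalized over 42 arrays. Outlier spots were masked, and the probes of a gene were averaged. Genes entered the test if 1 of their probes exceeded background (the scanner's mark) throughout the 3 arrays of at least 1 group. Groups were compared with lmFit and eBayes on 6 arrays with Benjamini-Hochberg adjustment, after the script was tested on simulated data.

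Named genes were the 8 largest called changes each way (groups apart, above background on 6 arrays), the 6 largest each way beyond their slide, PPAR receptors and 6 targets, the 2 smallest p-values each way per list, the genes the study names, the 3 largest bounds each way and agouti. Some genes that this rule names are not reported here. Other genes named were chosen after their values were seen. Members and lists were chosen with earlier results of these data known. The number of arrays limits the precision.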

Additional observations from a re-analysis of the deposited data

Results flagged for a closer look

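The rosiglitazone minus macroangiopathy difference was not the same in skeletal muscle and in aorta for 406 genes, by a test of the difference between the tissues (limma interaction, adjusted p under 0.05), which is 2.96% of the genes tested. Of these, 299 were also called in muscle, and 2584 genes passed the interaction at an unadjusted p under 0.05. In aorta itself limma called 0 genes at an adjusted p under 0.05. Psme3 differed by -3.48 in muscle and by 0.68 in aorta (interaction adjusted p = 0.00288), Uqcrb by -2.97 and 0.30 (adjusted p = 0.00841) and Tspan4 by 0.80 and -0.52 (adjusted p = 0.0358). The aorta arrays of each group lay on 1 slide of their own, and the part of slide in this difference cannot be told apart from that of tissue.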

How the results depend on the processing

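The count of 1695 called genes moved by less than 1.5 times with a normexp offset of 50 (1699), another quantile set, a stricter or no filter, trend and robust options, the authors' value table (1184) and the processed signal (1215). The processed signal split its calls into 295 higher and 920 lower and the authors' table into 480 and 704. The count moved further with the brightest probe of a gene (2567), with the 21 muscle arrays (1012) or all 42 arrays (40) in the fit, and with slide as a random block over 6 arrays (857) or 21 arrays (181). A slide term over all 42 arrays left 7. At an unadjusted p under 0.05 the counts were 1565 with 42 arrays, 1883 with the 21-array block and 656 with the 42-array slide term. The cause of these moves was not tested.

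Leaving out 1 array gave 347 to 1377 called genes and 3187 to 4176 at an unadjusted p. The count was 685 without rosiglitazone array 2, 521 without rosiglitazone array 3, and 347, 710 and 728 without macroangiopathy arrays 1, 2 and 3. The calls beyond their slide ranged from 5 to 39, an alternative chosen after seeing the data, like the scan day term (1282), the fit of 18 arrays without the healthy group (2786) and the removal of the A and G trend (1315). Against huoxue the 5 calls became 2 with the offset of 50, 1 with the processed signal and 3 with quantiles over 21 arrays. With the replicate block limma called 85 genes. The equal numbers did not pair the mice, since the correlations of their deviations were -0.328, -0.236 and -0.176.

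A term for the rosiglitazone slides over 21 muscle arrays, which only the healthy arrays estimate, and on their side of it healthy array 3, called 2423 genes, of which 384 were among the 1695. It turned the log2 difference of Ndufc2 -1.01, Hadhb -0.86, Ldhb -0.72, Chac1 -0.49, Pparg -0.48, Nr4a1 -0.40, Polr2a -0.30, Pcdh1 -0.23, Atp5g1 -0.029, Leo1 0.041, Rps23 0.057, Tnnc2 0.078, Bag3 0.11, Esam 0.19, Mta1 0.23, Rps21 0.24, Atf4 0.27, Slc25a20 0.34, Calr 0.52, Psma7 0.57, Ddx21 0.79 and Psmd3 1.02. The slide term over 42 arrays turned Polr2a -0.59, Pcdh1 -0.31, Hadhb -0.29, Ndufc2 -0.22, Ldhb -0.22, Pparg -0.21, Rps26 -0.093, Mybl2 -0.0076, Chac1 -0.0042, Ddx21 0.0020, Slc2a4 0.0022, Mta1 0.040, Bag3 0.042, Actb 0.056, Slc25a20 0.074, Rxra 0.082, Ndufa6 0.11, Psmd3 0.11, H2-T23 0.13, Cox7c 0.15, Lrp5 0.21, Psma7 0.24, Uqcrb 0.49, Rps21 0.50, Esam 0.52 and Myh4 0.89. Elsewhere the sign turned for Me1 on its brightest probe (0.11) and Polr2a with the scan day term (-0.052). Arrays carry no read depth: signal over background limits dim genes such as Ppard and Nr0b2, which were not tested.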

Other observations

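The summed level of the 14 epidermal genes also differed within other groups. It was 111059 on healthy array 3 against 2477 on healthy array 2, and 76407 on diabetic array 2 against 2863 on diabetic array 1. It lay between 2982 and 10338 on the huoxue arrays.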
